A study of Mus musculus with 4 samples.

Results

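Both mature arms of miR-205, listed as mmu-miR-205-5p and mmu-miR-205-3p, were followed through small RNA libraries of basal and luminal epithelial cells sorted from the mouse prostate. They were taken by name from the deposited lists of reads, and are 2 of the 816 mouse miRNA names found in at least 1 library. A name that a library does not list was counted as 0 reads there, but both arms were listed in all 4 libraries. The cells came from the prostate of wild-type C57Bl/6 males aged 10 weeks, with no treatment given in the labels. There were 2 basal libraries, sorted as Sca-1 positive, lineage negative cells with high CD49f (an integrin that anchors cells to the basement membrane), and 2 luminal libraries from the same Sca-1 positive, lineage negative fraction with low CD49f. The labels do not say whether the libraries of a group came from separate animals or from pools, so every p-value below reflects the spread among these particular libraries, which may be technical.

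A miRNA gene is transcribed into a long RNA, from which a hairpin is cut out and trimmed to a short duplex. One strand of the duplex, the guide, is kept by an Argonaute protein, and the other, the passenger, is mostly degraded. The bases from 2 to 8 of the guide, its seed, pair with target mRNAs. miR-205 is best known as a miRNA of basal epithelial cells in skin, prostate and mammary gland, and with the miR-200 family it represses Zeb1 and Zeb2, transcription factors that turn off epithelial genes. The series title names a microRNA specific to basal cells without saying which, and the comparison here asks how the reads of each arm divide between basal and luminal cells.

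The arms are shown because each has a seed of its own and because reads are assigned to arms by their sequence. The sequences are those of RefSeq on GRCm38.p6, 5′ to 3′, with the seed in capitals.
miR-205-5p: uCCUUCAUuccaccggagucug
miR-205-3p: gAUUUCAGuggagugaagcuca
Mir205 hairpin, with both mature arms in capitals: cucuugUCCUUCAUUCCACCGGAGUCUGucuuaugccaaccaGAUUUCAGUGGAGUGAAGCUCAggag
The hairpin is 68 bases long and lies on the minus strand at chr1:193507463-193507530, inside exon 2 of the 2 exons of the long noncoding RNA gene 4631405K08Rik (Mir205hg in RefSeq) on the same strand. Each arm is 22 bases long, at chr1:193507503-193507524 for miR-205-5p and chr1:193507467-193507488 for miR-205-3p, and 14 bases separate them. In the fold of lowest energy (RNAfold, -33.8 kcal/mol) the hairpin had 25 base pairs, 17 of them between the arms, and 6 of the 7 seed bases of miR-205-5p were paired.

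Neither seed recurred. None of the 1678 other mature mouse miRNAs in the RefSeq table shared bases 2 to 8 with either arm, and among them were 678 of the other miRNAs listed in these libraries. The mature sequence nearest to miR-205-5p, that of miR-7674-3p, was 7 single-base edits away, and the one nearest to miR-205-3p, that of miR-878-5p, was 8 away. Among the miRNAs listed here with a sequence, the nearest to either arm was 9 edits away. The nearest other miRNA hairpin of chromosome 1 in the table, Mir3962, lay 1314 kb from Mir205.

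The libraries held 1855718 and 3278294 miRNA reads for basal replicates 1 and 2, and 1583830 and 1501898 for luminal replicates 1 and 2. The other listed reads, which took from 29.5% to 62.4% of a library, belonged to names that are not miRNAs (3 names beginning with Cali and a 5′ adaptor). These were kept out of the miRNA totals. Reads of miR-200c-3p, a member of the miR-200 family, were the most numerous miRNA reads in all 4 libraries and differed enough between them to move the totals, so several scalings are given below.

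mmu-miR-205-5p was higher in basal cells, with no overlap between the groups. It had 139099 and 271770 reads in basal replicates 1 and 2, against 8743 and 5666 in luminal replicates 1 and 2. As a share of miRNA reads this was 7.50% (Wilson 95% interval 7.46 to 7.53) and 8.29% (8.26 to 8.32) in basal replicates 1 and 2. In luminal replicates 1 and 2 the share was 0.552% (0.541 to 0.564) and 0.377% (0.368 to 0.387). These intervals cover counting error only and take reads as independent. Reads amplified by PCR are not independent molecules, so the error in molecules may be wider. At these depths the intervals are far narrower than the distance between the groups.

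In RPM (reads scaled to 1000000 miRNA reads, with totals adjusted by TMM, the trimmed mean of M values), miR-205-5p averaged 66430 ± 20470 in basal and 5645 ± 1472 in luminal cells (SD, n = 2 each). The order was basal replicate 2, basal replicate 1, luminal replicate 1 and luminal replicate 2. The step between basal replicate 1 and luminal replicate 1 was 7.77-fold, while the libraries of a group differed 1.56-fold in basal and 1.45-fold in luminal cells. On the log2 scale the difference was 3.56 ± 0.78 (standard error), with an adjusted p of 0.0128 in the quasi-likelihood test of edgeR (Benjamini-Hochberg over 345 miRNAs). Of the 345 miRNAs tested, 2 (0.58%) were called higher in basal cells at an adjusted p under 0.05, and miR-205-5p was 1 of them. Without luminal replicate 2 the value was 3.36 and no longer passed (adjusted p = 0.0718). In these bulk samples, fewer cells of a type and less RNA per cell cannot be told apart.

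**Figure D1:**
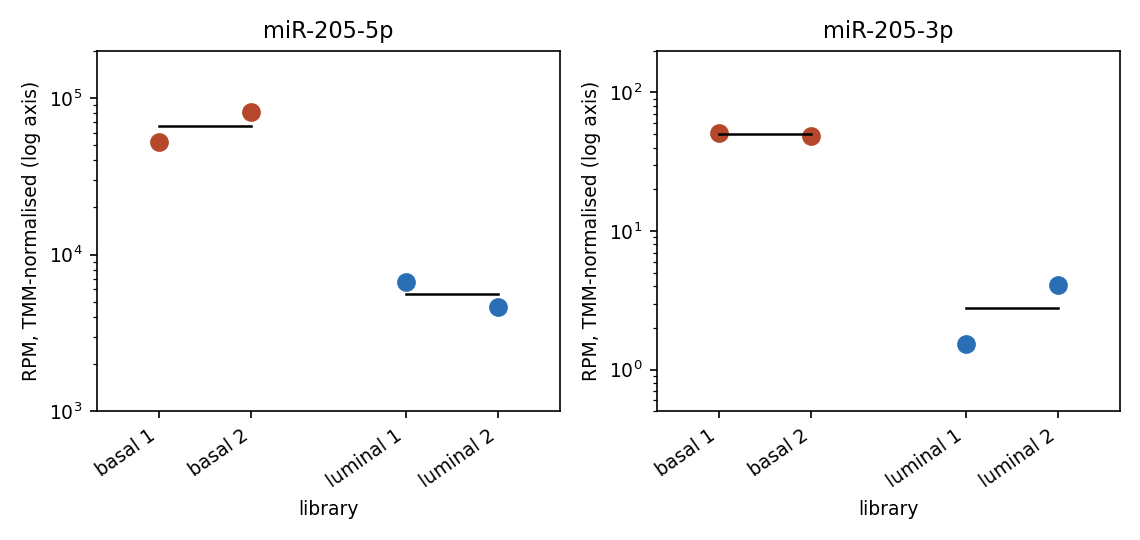
TMM-normalised RPM of miR-205-5p and of miR-205-3p in each library, on log axes of different range. Points are libraries (basal left, luminal right) and the line is the mean of a group. Both arms were higher in both basal libraries, with miR-205-5p at 66430 against 5645 and miR-205-3p at 49.8 against 2.80 RPM on average.

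The size of the difference depended on the scaling, and its direction did not in the 4 scalings compared. The fold between a basal and a luminal library, over the 4 pairs of libraries, ran from 7.77 to 17.6 with TMM and from 13.6 to 21.97 with miRNA totals alone. With miR-200c-3p left out of the totals it ran from 5.49 to 11.7. The labels do not say what the Cali names are, so values per Cali read are given as ratios of reads and not as amounts per cell. There were 180 and 70.6 reads of miR-205-5p per 1000 Cali reads in basal replicates 1 and 2, against 3.34 and 2.57 in luminal replicates 1 and 2. On that scale basal replicate 1 was the higher basal library, and the fold ran from 21.1 to 70.1. Scaling to the Cali reads also raised the median log2 fold change over all tested miRNAs by 1.99. Luminal libraries thus kept a mean level of 8.50% of the basal mean with TMM, 5.89% with totals, 12.2% without miR-200c-3p and 2.36% per Cali read.

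mmu-miR-205-3p, the other arm of the hairpin, was far less abundant and showed the same order of groups. It had 136 and 164 reads in basal replicates 1 and 2, against 2 and 5 in luminal replicates 1 and 2. Per 1000000 miRNA reads this was 73.3 (Wilson 95% interval 62.0 to 86.7) and 50.03 (42.9 to 58.3) in basal replicates 1 and 2. In luminal replicates 1 and 2 it was 1.26 (0.346 to 4.60) and 3.33 (1.42 to 7.79). The intervals of the basal and luminal libraries did not overlap, although the luminal values rest on very few reads.

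The TMM-normalised level of miR-205-3p was 49.8 ± 1.40 RPM in basal and 2.80 ± 1.79 in luminal cells (SD, n = 2 each). Its log2 fold change, 4.13 ± 1.30 (standard error), did not pass over all miRNAs (edgeR quasi-likelihood test, Benjamini-Hochberg adjusted p = 0.0895), and ranged from 3.66 to 6.13 over 13 other settings. It passed in DESeq2 (adjusted p = 0.0122), which called 2.03% of the tested miRNAs higher in basal cells. It also passed in edgeR without luminal replicate 1 (adjusted p = 0.0431, where 8.13% were called higher in basal cells) and without luminal replicate 2 (adjusted p = 0.0176, where 1.2% were). In those runs 1 luminal library stands alone and is assumed to vary like the 2 basal libraries, so they are no check of the luminal spread. Both arms come from 1 precursor, so the second arm is not an independent replicate of the first. Both were among the 94 of 345 tested miRNAs (27.2%) whose basal libraries lay above both luminal libraries, so the lack of overlap alone sets neither apart.

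The plot of abundance ranks shows where each arm stood in its library. miR-205-5p ranked 3 of 547 listed miRNAs in basal replicate 1 and 2 of 548 in basal replicate 2, against 16 of 573 in luminal replicate 1 and 23 of 445 in luminal replicate 2. In basal replicate 1 it stood between miR-24-3p, with 162841 reads, and the endothelial miR-126a-3p, with 120231. In basal replicate 2 it stood between miR-200c-3p, with 1538465 reads, and miR-125b-5p, with 158122. In luminal replicate 1 its neighbours were miR-23b-3p with 9213 and let-7a-5p with 7798 reads. In luminal replicate 2 they were miR-200a-3p with 5996 and let-7f-5p with 5539. There were from 0.945 to 1.12 reads of miR-205-5p per read of a luminal neighbour, so its rank there turns on small differences. How reads shared by the near-identical let-7 members were assigned is not known. miR-205-3p ranked 164 and 168 in basal replicates 1 and 2, against 467 and 314 in luminal replicates 1 and 2, where it was tied with many names of equally few reads.

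**Figure D2:**
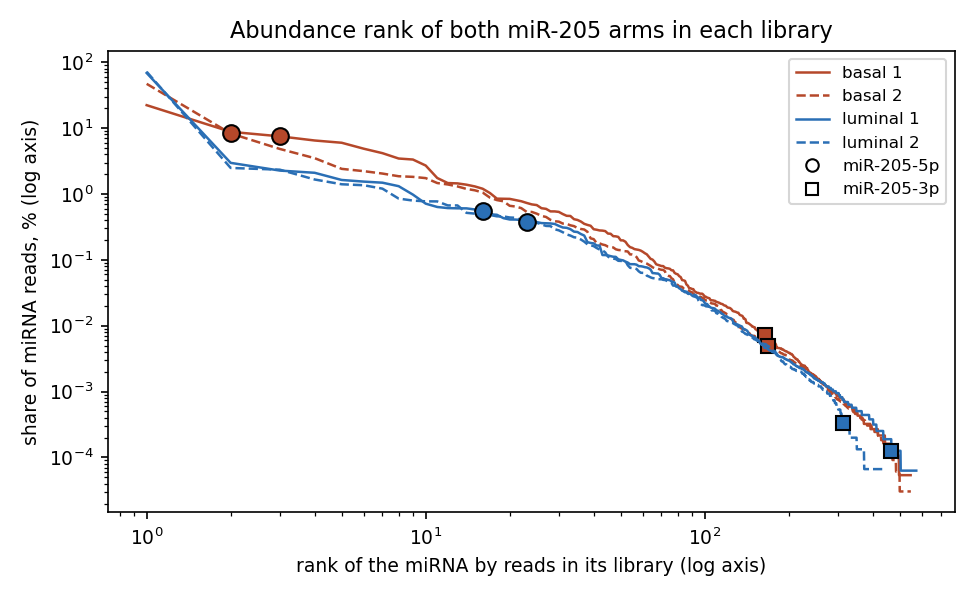
Share of miRNA reads (%, log axis) against the rank of each miRNA by reads in its library (log axis), 1 line per library, basal lines first in the legend. Circles mark miR-205-5p, at ranks 3 and 2 in basal and 16 and 23 in luminal libraries, and squares mark miR-205-3p, at ranks 164 and 168 in basal and 467 and 314 in luminal libraries.

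Of all 345 tested miRNAs, miR-205-5p had the largest excess of mean RPM in basal over luminal cells. Among the 61 miRNAs with a mean of at least 1000 RPM, it also had the largest log2 fold change toward basal cells. The next were both arms of the endothelial miR-126a, at 3.08 for miR-126a-3p and 2.63 for miR-126a-5p, and then miR-222-3p at 1.62. These 3 did not pass (edgeR adjusted p = 0.0651, 0.127 and 0.141), but both arms of miR-126a did in other settings. miR-126a-3p passed in DESeq2 (adjusted p = 0.00686) and in edgeR with the replicate block (0.000127), with no filter (0.000736), with upper-quartile factors (0.0491), by Cali reads (0.0381) and without basal replicate 2 (0.0229) or luminal replicate 1 (0.00107). miR-126a-5p passed in edgeR with the replicate block (adjusted p = 0.000242), with no filter (0.00354) and without basal replicate 1 (0.0435) or luminal replicate 1 (0.000265). DESeq2, the replicate block and no filter each called 7 miRNAs higher in basal cells, against the 2 given above. With the replicate block the log2 fold changes of miR-126a-3p and miR-126a-5p were 3.76 and 3.75, above the 3.55 of miR-205-5p. By Cali reads miR-126a-3p stood at 5.43 and miR-205-5p at 5.41, and without basal replicate 2 at 3.49 and 3.22. Without luminal replicate 1, miR-126a-3p and miR-126a-5p stood at 5.53 and 5.87, and miR-205-5p at 3.90. In the other settings miR-205-5p was above both arms. Among all 345 tested miRNAs, 8 had a larger fitted log2 fold change than miR-205-5p, miR-205-3p among them.

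The balance between the arms was taken within each library, where no scaling is needed. There were 1023 and 1657 reads of miR-205-5p per read of miR-205-3p in basal replicates 1 and 2, against 4372 and 1133 in luminal replicates 1 and 2. As a share of the reads of both arms, miR-205-3p took 0.0977% (exact 95% interval 0.0820 to 0.116) and 0.0603% (0.0514 to 0.0703) in basal replicates 1 and 2. Its share was 0.0229% (0.00277 to 0.0826) and 0.0882% (0.0286 to 0.206) in luminal replicates 1 and 2. The ranges of the groups overlapped. The basal libraries, with the more precise values, differed from each other beyond counting error if reads are taken as independent.

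The mean log2 ratio of miR-205-5p to miR-205-3p, with 0.5 reads added to each arm, was 10.3 ± 0.493 in basal and 10.9 ± 1.25 in luminal cells (SD, n = 2 each). The difference of -0.55 was smaller than the spread between luminal libraries (exact permutation test, 2-sided, p = 0.667, where 4 libraries allow no p below 0.33), and it was 0.33 without luminal replicate 1. A change of arm balance was thus not detectable with 2 and 5 luminal reads of the minor arm. The imbalance was steeper than that of most other pairs of arms. Of the pairs of arms with at least 1000 reads together, the minor arm took a median of 0.994% and 0.739% in basal replicates 1 and 2, over 60 and 62 pairs, and of 0.428% and 0.218% in luminal replicates 1 and 2, over 47 and 40 pairs. The pairs with a lower minor share than miR-205 were 9 and 7 in basal replicates 1 and 2, against 4 and 15 in luminal replicates 1 and 2.

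The miR-200 family, which marks epithelium and shares Zeb1 and Zeb2 with miR-205 as known targets, gave an internal measure. The reads of the 8 arms of miR-200a, miR-200b, miR-141 and miR-429 were summed, without miR-200c. miR-200c-3p was kept out because its reads had earlier been found to follow those of a Cali name. It had 413096 and 1538465 reads in basal replicates 1 and 2, against 1085642 and 1076058 in luminal replicates 1 and 2. The Cali reads of these libraries were 771214, 3849843, 2616681 and 2201916, in the same order. The origin of this likeness was not tested. There were 1.52 and 3.83 reads of miR-205-5p per family read in basal replicates 1 and 2, against 0.207 and 0.112 in luminal replicates 1 and 2. Basal libraries thus held more reads of miR-205-5p than of these arms together, and luminal libraries fewer. The mean log2 ratios differed, at 1.27 ± 0.946 in basal and -2.72 ± 0.630 in luminal cells (SD, n = 2 each), by 3.99, with no overlap between groups (exact permutation test, 2-sided, p = 0.33, the smallest that 4 libraries allow). The difference was 5.11 with miR-200c-3p added to the sum, and from 3.32 to 4.65 without 1 library. With miR-200c-3p added, basal libraries too held fewer reads of miR-205-5p than of the family. There were then 0.275 and 0.169 per family read in basal replicates 1 and 2, against 0.00775 and 0.00503 in luminal replicates 1 and 2.

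Markers of endothelium had higher levels in the same libraries as miR-205-5p. Whether the tested arms passed depended on the setting: neither did with TMM factors, the filter and no replicate block, while of 13 other settings miR-126a-3p passed in 7 and miR-126a-5p in 4. The settings did not call equally many miRNAs higher in basal cells. DESeq2, the replicate block and no filter each called 7, upper-quartile factors and Cali reads 3 each, and the test with TMM factors, the filter and no block 2. Passes without 1 library assume that the lone library varies like the other group. The endothelial list had 4 names, of which 3 were seen and 2 could be tested, and miR-126b-3p was seen in no library. Their summed level was 55058 and 34556 RPM in basal replicates 1 and 2, against 10579 and 966 RPM in luminal replicates 1 and 2. Nearly all of it was miR-126a. Per read of miR-126a-3p there were 1.16 and 3.45 reads of miR-205-5p in basal replicates 1 and 2, against 0.912 and 5.93 in luminal replicates 1 and 2. This ratio overlapped between the groups, and luminal replicate 2 had the highest. The part of endothelial RNA in the difference of miR-205-5p was not tested.

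**Figure D3:**
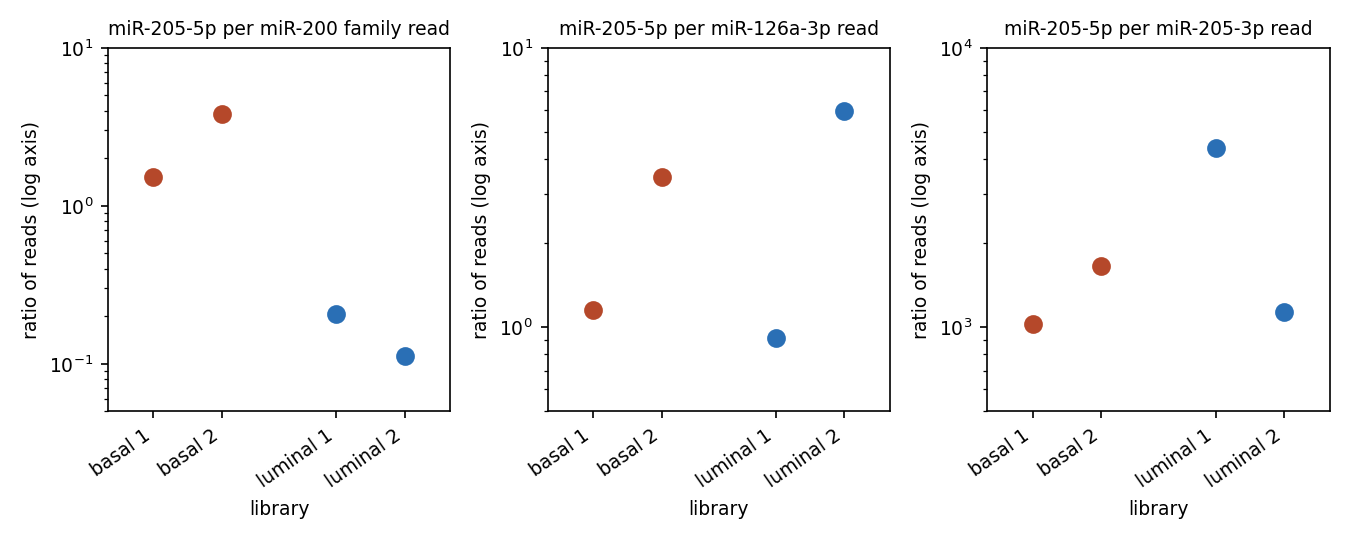
Reads of miR-205-5p per read of the summed miR-200a, miR-200b, miR-141 and miR-429 arms (left), of miR-126a-3p (middle) and of miR-205-3p (right), in each library, on log axes. The first ratio was 1.52 and 3.83 in basal against 0.207 and 0.112 in luminal libraries, while the ranges of the other two overlapped.

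Other miRNAs of stratified or basal epithelium did not pass. The list had 12 names, both arms of miR-205 included, and apart from these 7 of 10 could be tested. With all 4 libraries, none of the 7 was called in edgeR or DESeq2. Of the 7, 5 had values above 0, and the median log2 fold change, that of miR-221-5p, was 1.27, against -0.0053 over all 345 tested. The basal libraries of 4 of the 7 lay above both luminal libraries, where 27.2% of all tested miRNAs did so. These 4 were the arms of miR-221 and miR-222, a cluster known to repress the cell cycle inhibitor p27. As arms of 1 cluster they are not independent members of the list. miR-222-3p averaged 2982 ± 267 RPM in basal and 968 ± 57.2 in luminal cells (SD, n = 2 each; edgeR log2 fold change 1.62, adjusted p = 0.141), and miR-221-3p averaged 416 ± 90.99 RPM in basal and 156 ± 129 in luminal cells (1.41, adjusted p = 0.358). The log2 fold change was 1.27 for miR-221-5p and 3.25 for miR-222-5p, which had 84 and 71 reads in the basal libraries, against 7 and 0 in luminal ones. Dropping luminal replicate 1 put miR-222-5p at 9.02 on the log2 scale in edgeR. That value rests on its 0 reads in luminal replicate 2, the only luminal library left, so it is no separate evidence for this arm.

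miR-203-3p, known from differentiating layers of the epidermis, averaged 175 ± 50.5 RPM in basal and 378 ± 55.2 in luminal cells (SD, n = 2 each; log2 fold change -1.11, edgeR adjusted p = 0.391). This is the opposite order to that of miR-205, though under scaling to the Cali reads its log2 fold change was 0.73. miR-31-5p and miR-31-3p, from a gene active in skin keratinocytes, stood at -0.15 and 0.090 on the log2 scale, and their groups overlapped. Reads of miR-184-3p were 0 and 21 in basal replicates 1 and 2, against 4 and 0 in luminal replicates 1 and 2, too few for the test.

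**Figure D4:**
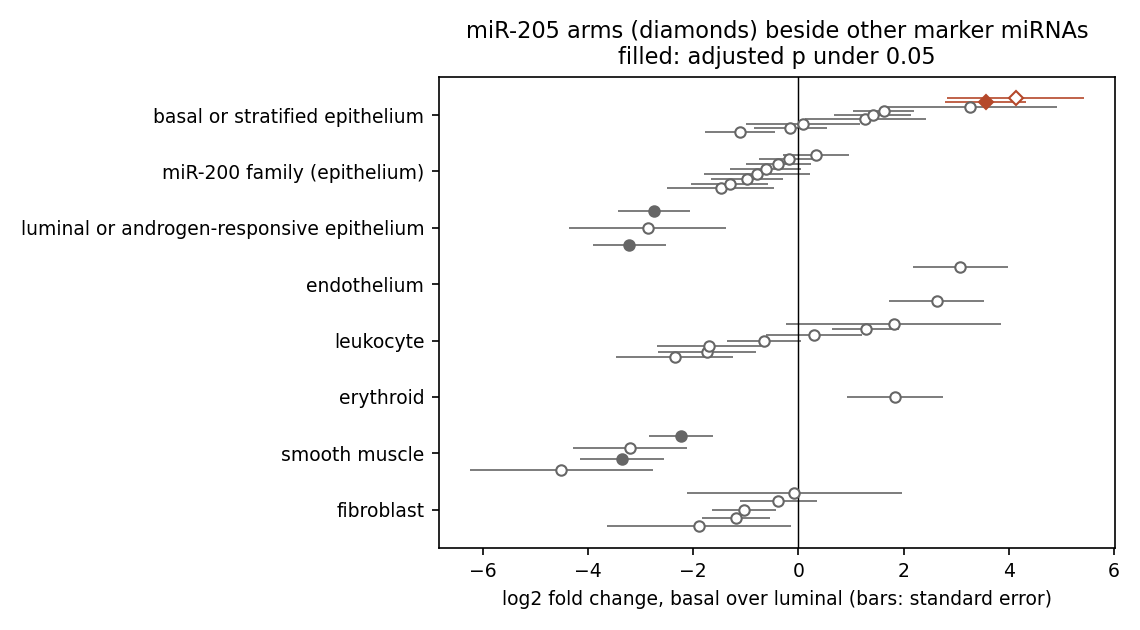
Log2 fold change of basal over luminal cells (x axis, bars are standard errors) for every tested member of 8 marker lists (rows). Diamonds are the miR-205 arms and filled symbols passed at an adjusted p under 0.05. Of the basal list only miR-205-5p passed, and both tested endothelial arms lay to the right with miR-205.

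The other lists are given for the makeup of the sorted cells. None of the 8 tested miR-200 family arms passed in edgeR or DESeq2 (median log2 fold change -0.70), with miR-200c-3p at -1.48 and miR-200b-3p at -0.62. Under scaling to the Cali reads these were 0.050 and 1.55. Of all tested miRNAs, 3.77% were called lower in basal cells. Of 3 tested arms on the luminal or androgen-responsive list, 2 were lower in basal cells and 0 higher (median -2.86). They were miR-148a-3p and miR-375-3p, at log2 fold changes of -2.74 and -3.21 (edgeR adjusted p = 0.0236 and 0.0128). Each call ended in 5 of 13 other settings. By Cali reads the log2 fold changes were -0.84 and -1.14 (edgeR adjusted p = 0.687 and 0.605), and by library totals the adjusted p was 0.130 and 0.107. The call of miR-148a-3p also ended under the 10 RPM filter (0.0511) and without basal replicate 1 or 2 (0.144 and 0.0773). That of miR-375-3p also ended without basal replicate 1, basal replicate 2 or luminal replicate 2 (0.0522, 0.113 and 0.123).

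All 4 tested smooth muscle arms had log2 fold changes below 0 (median -3.27). All 4 also passed in DESeq2, which called 21 of 345 tested miRNAs higher in luminal cells. By adjusted p in edgeR, 2 of the 4 were called lower in basal cells and 0 higher. These were miR-143-3p (edgeR log2 fold change -2.23, adjusted p = 0.0466) and miR-145a-5p (-3.35, adjusted p = 0.0232). The summed level of this list was 1060 and 1983 RPM in basal replicates 1 and 2, against 9560 and 12498 in luminal replicates 1 and 2. The call of miR-143-3p ended in 9 of 13 other settings. These were the runs without basal replicate 1, basal replicate 2 or luminal replicate 1 (edgeR adjusted p = 0.337, 0.298 and 0.154), RLE factors (0.0519), library totals (0.200), a mean of at least 10 RPM (0.0690), no filter (0.0683), upper-quartile factors (0.109) and Cali reads, where its log2 fold change was -0.14 (0.954). The call of miR-145a-5p ended without basal replicate 1 (edgeR adjusted p = 0.157), by Cali reads, at -2.12 (0.323), with library totals (0.107) and under the 10 RPM filter (0.0690). None of the 5 tested fibroblast arms passed (median -1.02), with miR-214-3p at -1.02 and miR-199a-5p at -1.18. None of the 7 tested leukocyte arms passed (median -0.65), with miR-150-5p at 1.28 and miR-342-3p at -0.65. DESeq2 called 0 arms of the fibroblast and leukocyte lists too. The erythroid miR-451a, the 1 tested name of that list, had 450 and 9636 reads in basal replicates 1 and 2, against 265 and 794 in luminal replicates 1 and 2 (log2 fold change 1.84, edgeR adjusted p = 0.346, and 0.0367 without luminal replicate 2), and for miR-144-3p of the same list there were 6 and 505 reads in basal against 5 and 1 in luminal replicates.

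The 5 miRNAs whose profile over the 4 libraries was most like that of miR-205-5p were miR-542-5p, miR-708-5p, miR-322-5p, miR-204-3p and miR-25-5p. Likeness was the root mean square difference between log2 RPM values, each miRNA centred on its own mean, over 4 libraries. It ran from 0.456 for miR-542-5p to 0.580 for miR-25-5p, against a median of 1.87 over the 344 other tested miRNAs. miR-205-3p came in place 8 at 0.698. Of the 5, miR-322-5p was the abundant one, with 4219 and 4388 reads in basal replicates 1 and 2, against 422 and 172 in luminal replicates 1 and 2. The other 4 had at most 81 reads in any library and at most 3 in luminal libraries, so their likeness rests on few reads.

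miR-322-5p, whose seed is that of miR-15 and miR-16, was the other miRNA called higher in basal cells (edgeR log2 fold change 2.64, standard error 0.65, adjusted p = 0.0236). This call was lost when a library was left out, namely basal replicate 1, basal replicate 2 or luminal replicate 2 (adjusted p = 0.137, 0.0866 and 0.172). With all 4 libraries it was also lost by Cali reads (edgeR adjusted p = 0.121), library totals (0.0653) and a mean of at least 10 RPM (0.0511). miR-542-5p, which is encoded in the same X-linked cluster as miR-322, had 81 and 72 reads in basal replicates 1 and 2, against 3 and 1 in luminal replicates 1 and 2 (log2 fold change 3.998, edgeR adjusted p = 0.213). Without luminal replicate 1 its log2 fold change was 4.97, a value that rests on the 1 read of luminal replicate 2. On the log2 scale miR-708-5p, miR-204-3p and miR-25-5p stood at 3.87, 4.22 and 2.74, and none passed (edgeR adjusted p = 0.384, 0.351 and 0.520).

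**Figure D5:**
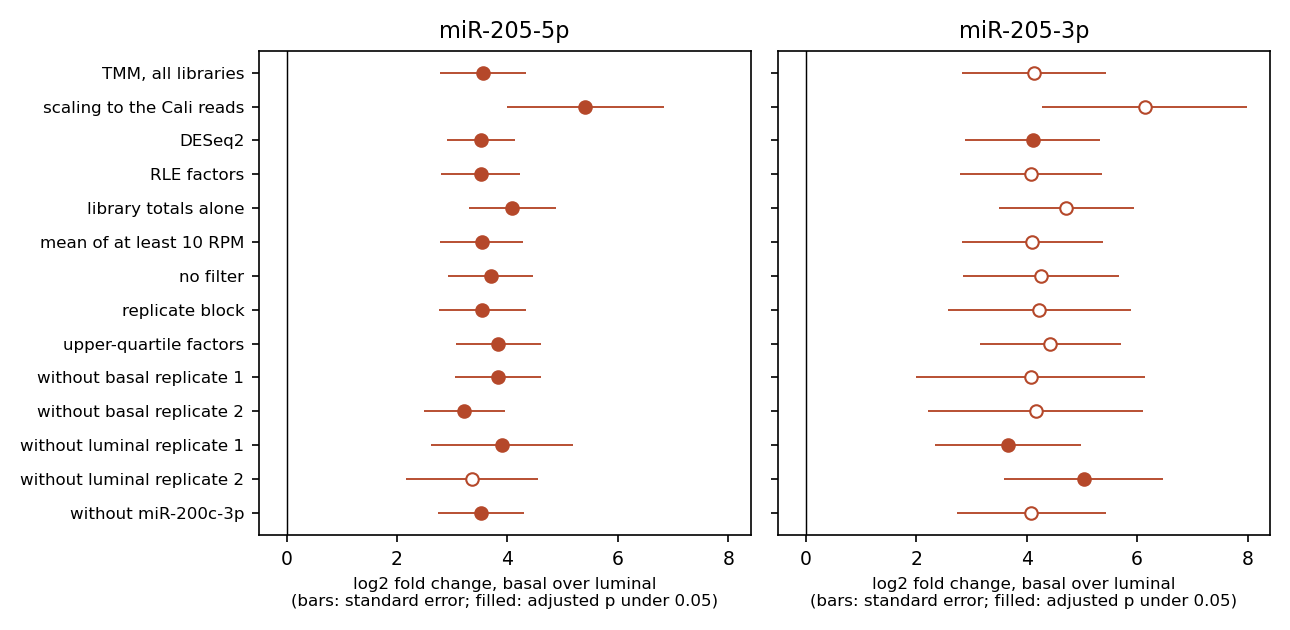
Log2 fold change of basal over luminal cells (x axis, bars are standard errors) for miR-205-5p and miR-205-3p under each setting of the analysis (rows), filled where the adjusted p was under 0.05. All values lay above 0, from 3.22 to 5.41 for miR-205-5p and from 3.66 to 6.13 for miR-205-3p in the settings other than the first.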

How the data were processed

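The values are counts of reads per miRNA name, deposited as 1 list for each of 4 libraries, per the file headers, with no normalisation. Its name points to BLAST. Its version, the miRNA database, the mismatches allowed and any trimming: not given in the sources used here. Each list ends with an unnamed sum, which was left out. Names that are not miRNAs stayed out of totals and tests.

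Counts were tested with edgeR 4.0.16 (R 4.3.3), using TMM factors, filterByExpr (at least 10 reads, total 15) and a quasi-likelihood model of cell type alone. The test was 2-sided, with Benjamini-Hochberg adjustment over 345 miRNAs and a threshold of 0.05. Standard errors are the log2 fold change over the square root of F. Before log2 values were compared between miRNAs, 0.5 RPM was added. DESeq2 1.42.0, other scalings and filters, a replicate block and runs without 1 library were the alternatives. A run without 1 library takes the spread from the other group alone and assumes that the lone library varies like it. The hairpin was folded with RNAfold 2.7.2. RefSeq and GENCODE M21 annotation is on GRCm38, and the table gives no coordinates. Of the 816 names, 679 had a RefSeq sequence.

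Besides both arms, named miRNAs were the 5 nearest profiles, the neighbours in rank, the basal list, and the 2 most abundant of each other list. miR-142 and miR-486 were matched by the older names the table uses. The members, lists, tests and this rule were chosen with earlier results of these data known. The miR-126a arms were further singled out for their values.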

Additional observations from a re-analysis of the deposited data

How the results depend on the processing

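In 13 other settings miR-205-5p stayed above 0 on the log2 scale and passed in 12. Without 1 library it ran from 3.22 to 3.90, and the call ended without luminal replicate 2 (3.36). With the replicate block it was 3.55 (adjusted p = 0.000409). miR-205-3p passed in 3 settings, in DESeq2 at 4.11 (adjusted p = 0.0122) and without either luminal library, and ran from 3.66 to 5.03 without 1 library. With the replicate block it was 4.23 and did not pass (adjusted p = 0.106). The labels do not say that equal numbers pair the libraries, and the deviations of same-numbered libraries from their group means correlated at 0.152 over 345 miRNAs. The arm ratio ran from -1.43 to 0.33 without 1 library, and the ratio to the miR-200 family from 3.32 to 4.65.

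The 2 basal and 13 luminal calls over all miRNAs became 7 and 21 in DESeq2, 7 and 16 with the replicate block, 7 and 14 with no filter, 3 and 10 when upper-quartile factors were used, 1 and 4 when a mean of 10 RPM was required, 1 and 1 by library totals and 3 and 0 by Cali reads. Without 1 library there were from 2 to 33 basal and from 5 to 28 luminal calls. Scaling to the Cali reads moved the median of all miRNAs by 1.99 (log2), library totals by 0.569 and upper-quartile factors by 0.317. Under these scalings miR-205-5p stood at 5.41, 4.09 and 3.83 (log2, basal over luminal), and at 3.42, 3.52 and 3.52 with each shift taken off. A scaling moves all miRNAs by nearly the same amount, so the nearness of these to the TMM value is no separate check.

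Directions turned for miRNAs that had not passed, and for these the cause was not tested beyond the shifts of all miRNAs given here. With scaling to the Cali reads the log2 fold changes were 0.73 for miR-203-3p, 1.29 for miR-31-5p, 1.55 for miR-200b-3p, 0.050 for miR-200c-3p, 0.90 for miR-342-3p, 0.94 for miR-199a-5p and 0.90 for miR-214-3p. With library totals they were 0.29 for miR-31-5p and 0.013 for miR-200b-3p, and with upper-quartile factors 0.070 for miR-31-5p. Runs without 1 library put miR-31-5p between -1.29 and 0.46, miR-31-3p between -0.66 and 1.04, miR-342-3p between -1.46 and 0.71 and miR-451a between -1.32 and 2.93. The 2 and 5 luminal reads of miR-205-3p limit what can be said of that arm.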
